A study of Mus musculus with 10 samples.

Results

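The oligodendrocyte lineage genes described here are 9 genes that mark successive stages of the cells that make myelin in the brain and spinal cord: Olig1, Olig2, Sox10, Pdgfra, Cspg4, Gpr17, Cnp, Mbp and Mog. They were taken by name, and all 9 of the 9 were measured, out of 19938 genes tested. The cells were labelled as terminally differentiated mouse neurons of the strain 129Sv-C57Bl/6. They received 25 µM SP600125, which blocks JNK, the kinase family that phosphorylates JUN, in 3 doses given 2 hours apart, or the solvent DMSO on the same schedule. RNA of each of 5 DMSO and 5 SP600125 samples was hybridised to 1 Affymetrix whole-transcript array, and replicates a and b used drug batch 1 while c, d and e used drug batch 2. The labels do not tie the replicates to separate cultures, and the spread behind each p-value may therefore be technical.

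Oligodendrocytes arise from progenitor cells that carry the receptor PDGFRA and the proteoglycan NG2, the product of Cspg4, on their surface. The basic helix-loop-helix factors OLIG1 and OLIG2 and the high-mobility-group factor SOX10 specify the lineage and later switch on myelin genes. GPR17 is a G protein-coupled receptor of cells that have committed to differentiate but do not yet make myelin. CNP, MBP and MOG are made by differentiating and myelinating cells, with CNP and MBP inside the myelin sheath and MOG on its outer surface.

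After SP600125, 5 of these 9 genes fell and none rose. Cnp and Gpr17 fell most, to 72.1% and 72.3% of their DMSO signal, followed by Olig1 at 78.7%, Pdgfra at 85.5% and Mbp at 88.5%. Olig2, Sox10, Cspg4 and Mog did not pass the test, with log2 changes from −0.11 to 0.16. In all genes tested, 29.9% passed the same test as lower (limma with drug batch as a term, Benjamini-Hochberg adjusted p under 0.05), against 55.6% of the 9 genes, and 17.0% passed as higher. The median log2 change was −0.18 over the 9 genes and −0.03 over all genes tested. The 13709 genes with a mean log2 signal of at least 5 include all 9. When only those were tested, 44.6% passed as lower and 11.8% as higher, with a median log2 change of −0.14. With an unadjusted p under 0.05 the number of the 9 genes that were higher was also 0.

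**Figure D1:**
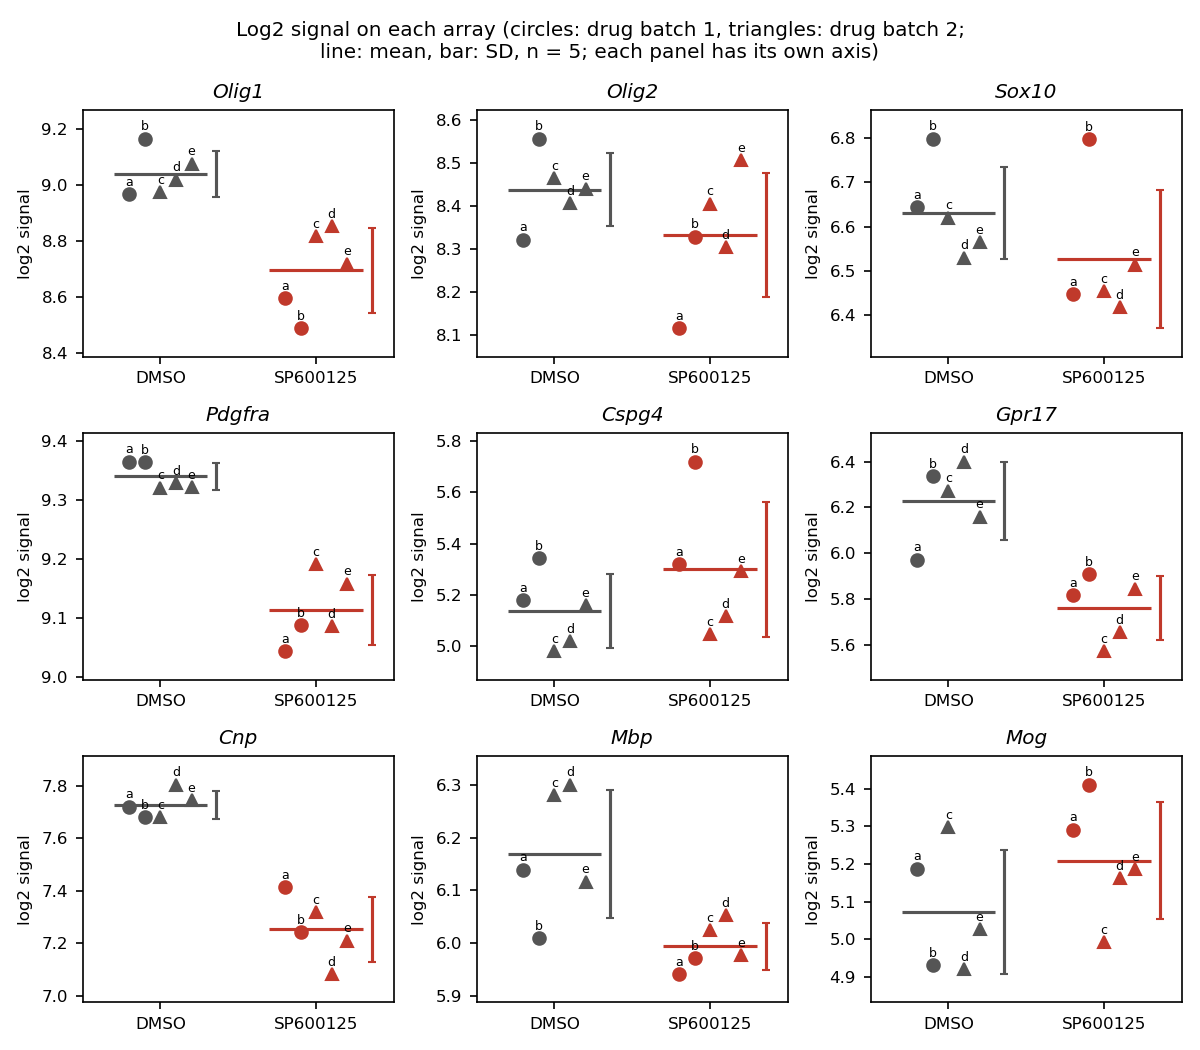
Deposited log2 signal of each of the 9 genes on the 5 DMSO arrays (grey) and the 5 SP600125 arrays (red), with circles for drug batch 1, triangles for drug batch 2, letters for the replicate, a line for the mean and a bar for the SD; each panel has its own axis. The groups do not overlap for Olig1, Pdgfra, Gpr17 and Cnp, and they overlap for the other 5 genes.

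Array-wide features touch these values. Array medians over all probe sets ran from 5.51 to 5.61 on the DMSO arrays and from 5.63 to 5.71 on the SP600125 arrays. The SD of log2 signal over the genes tested was narrower on every SP600125 array (1.63 to 1.71) than on every DMSO array (1.76 to 1.84). The change went with brightness: where the mean log2 signal of a gene lay between 5 and 6, the median log2 change was 0.08, and between 8 and 9 it was −0.24. Both b arrays stood apart in the pan-neuronal markers, whose mean log2 signal was 9.16 on DMSO replicate b and 9.48 to 9.50 on the other DMSO arrays, and 9.36 on SP600125 replicate b and 8.79 to 8.92 on the other SP600125 arrays. Without both b arrays the same 5 oligodendrocyte lineage genes passed as lower. In these bulk samples, fewer cells of a type and less RNA per cell cannot be told apart.

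Promoter sequences are shown for 3 of the genes to set a pair that fell, Cnp and Pdgfra, beside Olig2, which did not pass. Each is the RefSeq window of build GRCm38.p6 from 250 bases before to 50 bases after the annotated start, 300 bases on the plus strand, at chr11:100574689-100574988 for Cnp, chr5:75152001-75152300 for Pdgfra and chr16:91225300-91225599 for Olig2. Capitals mark matches, on either strand, to the AP-1 site TGANTCA of JUN and FOS dimers, the CRE TGACGTCA of JUN and ATF dimers and its short form TGACG, a SOX core ACAAAG, and the E-box CANNTG that helix-loop-helix factors such as OLIG1 and OLIG2 bind. Every full CRE also holds the short form.
Cnp promoter: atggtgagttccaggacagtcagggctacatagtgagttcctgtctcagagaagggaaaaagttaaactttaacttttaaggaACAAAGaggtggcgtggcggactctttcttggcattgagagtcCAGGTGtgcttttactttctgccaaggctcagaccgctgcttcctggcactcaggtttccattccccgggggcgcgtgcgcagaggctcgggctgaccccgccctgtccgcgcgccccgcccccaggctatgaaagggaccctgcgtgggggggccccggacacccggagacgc
Pdgfra promoter: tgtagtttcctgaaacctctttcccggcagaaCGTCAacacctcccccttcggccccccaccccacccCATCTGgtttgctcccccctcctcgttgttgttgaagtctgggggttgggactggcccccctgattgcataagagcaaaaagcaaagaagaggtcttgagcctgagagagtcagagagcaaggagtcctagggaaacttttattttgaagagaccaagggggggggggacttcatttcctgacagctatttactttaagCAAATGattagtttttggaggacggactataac
Olig2 promoter: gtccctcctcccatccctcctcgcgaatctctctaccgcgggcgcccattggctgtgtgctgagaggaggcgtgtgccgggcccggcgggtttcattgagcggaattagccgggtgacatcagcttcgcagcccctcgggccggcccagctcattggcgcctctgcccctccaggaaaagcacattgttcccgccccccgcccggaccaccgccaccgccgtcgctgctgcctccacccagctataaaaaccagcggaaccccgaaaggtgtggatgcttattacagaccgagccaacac

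The Cnp window held 1 SOX core and 1 E-box (CAGGTG), the Pdgfra window held 1 short CRE and 2 E-boxes (CATCTG and CAAATG), and the Olig2 window held none of the 5 motifs. A short CRE (TGACG) was also in the window of Mog, which did not pass, and the Cspg4 window held none of the 5 motifs. No AP-1 site and no full CRE was in the windows of Cnp, Pdgfra, Olig2, Cspg4 or Mog, the 5 genes with a window used here. Among 32851 RefSeq promoter windows of the same length, 7.81% held an AP-1 site, 1.79% a full CRE, 20.8% a short CRE, 18.7% the SOX core and 72.3% an E-box. These matches describe letters in a short window and not binding.

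Olig1, the transcription factor that acts in the maturation of oligodendrocytes and in myelin repair, fell. Its log2 signal was 8.97, 9.16, 8.97, 9.02 and 9.08 on DMSO arrays a to e and 8.60, 8.49, 8.82, 8.85 and 8.72 on SP600125 arrays a to e. Every SP600125 array lay below every DMSO array, with the lowest values on the drug batch 1 arrays. SP600125 minus DMSO gave a log2 change of −0.35 (SE 0.07, n = 5 per group, limma adjusted p = 0.0022). Olig1 did not pass after cyclic loess normalization (−0.18, adjusted p = 0.102).

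Olig2, its close relative and the factor without which the lineage is not specified, gave 8.32, 8.56, 8.46, 8.41 and 8.44 on DMSO arrays a to e. On SP600125 arrays a to e it gave 8.11, 8.33, 8.40, 8.30 and 8.51, so the groups overlapped and only DMSO replicate b lay above SP600125 replicate e. Olig2 thus differed by −0.11 on the log2 scale (95% interval −0.26 to 0.05, limma adjusted p = 0.242). Its direction depended on how arrays were scaled: it was 0.05 after quantile normalization and 0.08 after cyclic loess, and −0.21 with adjusted p = 0.0302 when each array was centred on the median of all its probe sets.

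The genes of these related factors lie next to each other on mouse chromosome 16, with no protein-coding gene and 1 noncoding gene starting between them, and both belong to the brightness range of 8 to 9. The difference Olig1 minus Olig2 within an array, in which any offset common to both genes cancels, was 0.60 ± 0.05 (SD, n = 5) with DMSO and 0.36 ± 0.17 with SP600125. It narrowed by 0.24 on the log2 scale (exact two-sided permutation test within drug batch, n = 5 per group, p = 0.0333, where 0.0167 is the smallest p the design allows). On 4 of the 5 SP600125 arrays the difference lay below that of all DMSO arrays, and on replicate d it did not. This was 1 of 3 pairs compared, chosen with earlier results of these data known, and its p adjusted over the 3 was 0.0333. The adjustment does not correct for that choice. After cyclic loess the narrowing was 0.26 (exact permutation p = 0.0333). Without both b arrays it was 0.19 (exact permutation p = 0.1), a setting with fewer relabellings in which no p under 0.05 was possible. Leaving out any 1 of DMSO replicates a, b, d and e or SP600125 replicates b and e gave an exact permutation p from 0.05 to 0.0833, with narrowings from 0.18 to 0.24.

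Sox10, the factor that activates Mbp and other myelin genes together with the OLIG proteins, also marks neural crest cells and Schwann cells. Its log2 signal was 6.64, 6.80, 6.62, 6.53 and 6.56 on DMSO arrays a to e and 6.45, 6.80, 6.45, 6.42 and 6.51 on SP600125 arrays a to e. Replicate b was at 6.80 in both groups, while the other 4 SP600125 arrays lay below all 5 DMSO arrays. The log2 change was −0.11 (95% interval −0.26 to 0.05, limma adjusted p = 0.23), and without both b arrays it was −0.13 (adjusted p = 0.0828). When each array was centred on the median of all its probe sets it passed at −0.21 (adjusted p = 0.0277). Of 8 measured Schwann cell and neural crest markers, 2 fell (25%, against 29.9% of all genes) and none rose. Those that fell were Pmp22, a protein of peripheral myelin, and Gap43, a growth cone protein that neurons make as well.

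Pdgfra, the receptor through which PDGF keeps progenitors dividing, had the smallest spread of the 9 genes over the DMSO arrays. It gave 9.36, 9.36, 9.32, 9.33 and 9.32 on DMSO arrays a to e and 9.04, 9.09, 9.19, 9.09 and 9.16 on SP600125 arrays a to e, with no overlap. Pdgfra fell with a log2 change of −0.23 (SE 0.06, n = 5 per group, limma adjusted p = 0.00528). Genes of its brightness, between 9 and 10, had a median log2 change of −0.21, and 64.4% of them passed as lower. After cyclic loess the change was −0.08 (adjusted p = 0.282), and in drug batch 2 alone it was −0.18 (adjusted p = 0.0528).

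Fibroblasts carry PDGFRA as well, and some of their markers fell in the same arrays. Of 9 fibroblast markers 5 fell (55.6%, against 29.9% of all genes), 4 did not pass and none rose. Among genes between 9 and 10, where the mean over the 9 markers lay, 64.4% passed as lower. The collagen genes Col1a1 (log2 change −0.69, SE 0.07) and Col1a2 (−0.61, SE 0.06) fell most. The mean log2 signal over the 9 markers ran from 9.61 to 9.68 on the DMSO arrays and from 9.24 to 9.34 on the SP600125 arrays, without overlap. Their part in the fall of Pdgfra was not tested.

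Cspg4, which encodes the NG2 proteoglycan of progenitors and of pericytes, did not pass. It gave 5.18, 5.34, 4.98, 5.02 and 5.16 on DMSO arrays a to e and 5.32, 5.72, 5.05, 5.12 and 5.29 on SP600125 arrays a to e, with the highest value of each group on replicate b. Both group means (5.14 and 5.30) lay below the lowest array median over all probe sets, 5.51. Whether Cspg4 was expressed was not tested. The log2 change was 0.16 (95% interval −0.02 to 0.34, limma adjusted p = 0.127), and genes between 5 and 6 had a median log2 change of 0.08. Of 10 pericyte and smooth muscle markers, 3 fell (30%) and 1 rose (10%), against 29.9% and 17.0% of all genes. Tagln (−0.64, SE 0.10) and Acta2 (−0.62, SE 0.06), contractile genes of smooth muscle, fell most. The riser was Abcc9, a potassium channel subunit of pericytes (0.24, SE 0.09). The within-array difference Pdgfra minus Cspg4 narrowed by 0.39 on the log2 scale (exact permutation test within drug batch, n = 5 per group, p = 0.0167, the smallest the design allows, and 0.025 adjusted over 3 pairs). After cyclic loess it narrowed by 0.12 (exact permutation p = 0.383), so that difference between a bright and a dim gene depended on the scaling. The pair was chosen with earlier results of these data known, which the adjustment over 3 pairs does not correct for.

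Gpr17, the receptor of committed cells that do not yet make myelin, fell to 72.3% of its DMSO signal. Its log2 signal was 5.97, 6.34, 6.27, 6.40 and 6.16 on DMSO arrays a to e and 5.82, 5.91, 5.57, 5.66 and 5.85 on SP600125 arrays a to e. The groups did not overlap, and the closest values were those of replicate a with DMSO and replicate b with SP600125. This gave a log2 change of −0.47 (SE 0.09, n = 5 per group, limma adjusted p = 0.00124). Between 5 and 6, the brightness range that holds its mean of 5.99, the median log2 change was 0.08, 13.8% of genes passed as lower, and 1.31% had a lower value than Gpr17. In the next range, from 6 to 7, the median was −0.14. After cyclic loess the change was −0.48 (adjusted p = 0.00125).

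Cnp, an enzyme bound to the membranes of oligodendrocytes that appears early in differentiation, had the largest fall of the 9 genes by a narrow margin over Gpr17. It gave 7.72, 7.68, 7.68, 7.80 and 7.75 on DMSO arrays a to e and 7.41, 7.24, 7.32, 7.08 and 7.21 on SP600125 arrays a to e, again without overlap. Cnp had a log2 change of −0.47 (SE 0.07, n = 5 per group, limma adjusted p = 0.000263). Among genes with a mean between 7 and 8 the median log2 change was −0.22, and 8.18% had a lower value than Cnp. The fall was −0.29 after cyclic loess (adjusted p = 0.0069).

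Mbp, the basic protein that compacts the myelin sheath, fell by a small amount that did not hold up in every setting. Its log2 signal was 6.14, 6.01, 6.28, 6.30 and 6.12 on DMSO arrays a to e and 5.94, 5.97, 6.02, 6.05 and 5.98 on SP600125 arrays a to e. The groups overlapped through DMSO replicate b, which lay below SP600125 replicates c and d. The log2 change was −0.18 (SE 0.06, n = 5 per group, limma adjusted p = 0.0297). It lost the call when any of DMSO replicates a, c and d or SP600125 replicates c and e was left out (adjusted p from 0.0508 to 0.0766).

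Mog, the glycoprotein on the outer face of finished myelin, did not pass. It gave 5.19, 4.93, 5.30, 4.92 and 5.03 on DMSO arrays a to e and 5.29, 5.41, 4.99, 5.16 and 5.19 on SP600125 arrays a to e, with wide overlap. Every value lay below the lowest array median over all probe sets, 5.51. Whether Mog was expressed was not tested. The log2 change was 0.14 (95% interval −0.05 to 0.32, limma adjusted p = 0.213). Without DMSO replicate c it was 0.21 and passed (adjusted p = 0.0482), and after quantile normalization it was below 0 by less than 0.01.

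Between Cnp and Mbp the within-array difference narrowed by 0.30 on the log2 scale (exact permutation test within drug batch, n = 5 per group, p = 0.0167, and 0.025 adjusted over 3 pairs), with 4 of 5 SP600125 arrays below all DMSO arrays. After cyclic loess that narrowing was 0.12 (exact permutation p = 0.233). This pair too was chosen with earlier results of these data known, which the adjustment over 3 pairs does not correct for. Differences in response that involve Mog were not tested.

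**Figure D2:**
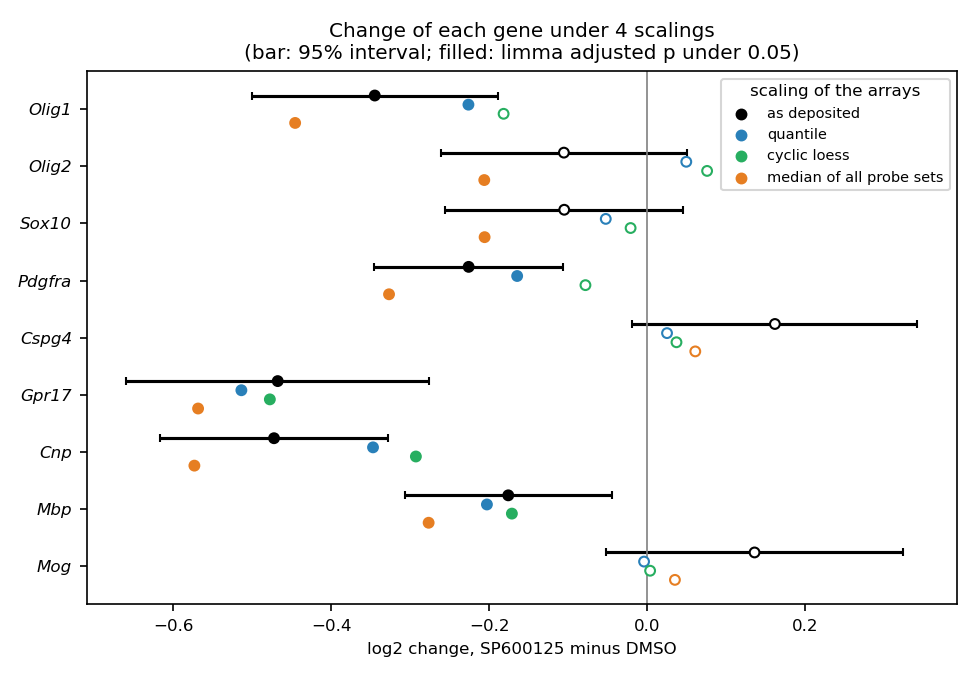
Log2 change (SP600125 minus DMSO) of each gene with the values as deposited (black, with the 95% interval from limma) and under 3 other scalings of the arrays; filled points passed at an adjusted p under 0.05. Gpr17, Cnp and Mbp passed under all 4 scalings shown, Olig1 and Pdgfra under 3 of them, and Olig2 lay on either side of 0; Olig2 and Sox10 passed only when arrays were centred on all probe sets.

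Groups that did not overlap were found for 4 of the 9 genes (Olig1, Pdgfra, Gpr17 and Cnp), all with SP600125 lower, against 16.4% of all genes in that direction. No gene of the 9 lay wholly higher with SP600125, against 6.65% of all genes.

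Brightness bears on how far these falls exceed those of other genes. Among genes between 8 and 9, 66.3% passed as lower, so that Olig1 at −0.35 stood with most genes of its range, of which 27% had a lower value, and Olig2 at −0.11 lay above 78% of them. Sox10 and Mbp belong to the range from 6 to 7, in which the median log2 change was −0.14 and 41.1% passed as lower.

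**Figure D3:**
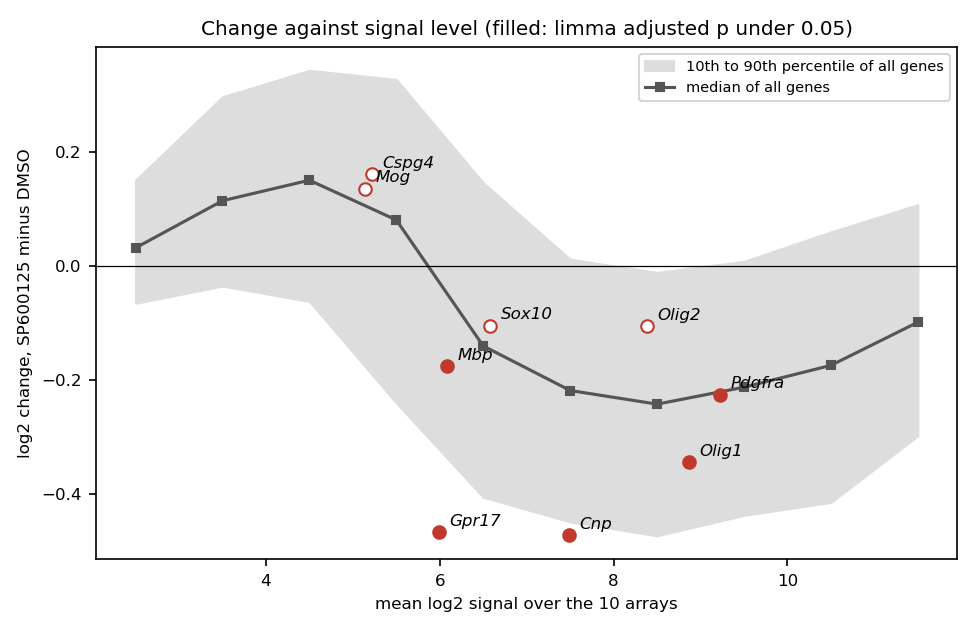
Log2 change (SP600125 minus DMSO) against mean log2 signal over the 10 arrays for the 9 genes (red circles, filled where the adjusted p from limma was under 0.05), with the median (line) and the 10th to 90th percentile (grey) of all genes in steps of 1 log2 unit. Gpr17 and Cnp lie below the grey range, while Pdgfra and Sox10 lie near the median line.

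Drug batch was compared next, since the drug came from separate lots. Within drug batch 1 the differences of mean log2 signal were −0.52 for Olig1, −0.37 for Cnp, −0.30 for Pdgfra, −0.29 for Gpr17 and −0.12 for Mbp. Within drug batch 2 they were −0.23, −0.54, −0.18, −0.59 and −0.21 for the same genes. All 5 thus kept their direction in both lots, and so did Olig2 (−0.22 and −0.03), Sox10 (−0.10 and −0.11), Cspg4 (0.26 and 0.10) and Mog (0.29 and 0.03). The 5 had been called from a fit over both lots, so their equal sign in each lot is not separate support. The transcription factor Olig1 had the larger difference in drug batch 1, while Cnp and Gpr17 had theirs in drug batch 2.

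These contrasts between lots did not pass. The interaction of treatment and batch was smallest in p for Olig1 (0.30 on the log2 scale, SE 0.13, limma adjusted p = 0.521), the only 1 of the 9 with an unadjusted p under 0.05. Across all genes 0% passed the interaction test in limma, with 1852 of 19938 at an unadjusted p under 0.05. Drug batch 1 alone holds 2 arrays per group, and there 0 of the 9 genes passed and 3 had an unadjusted p under 0.05.

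**Figure D4:**
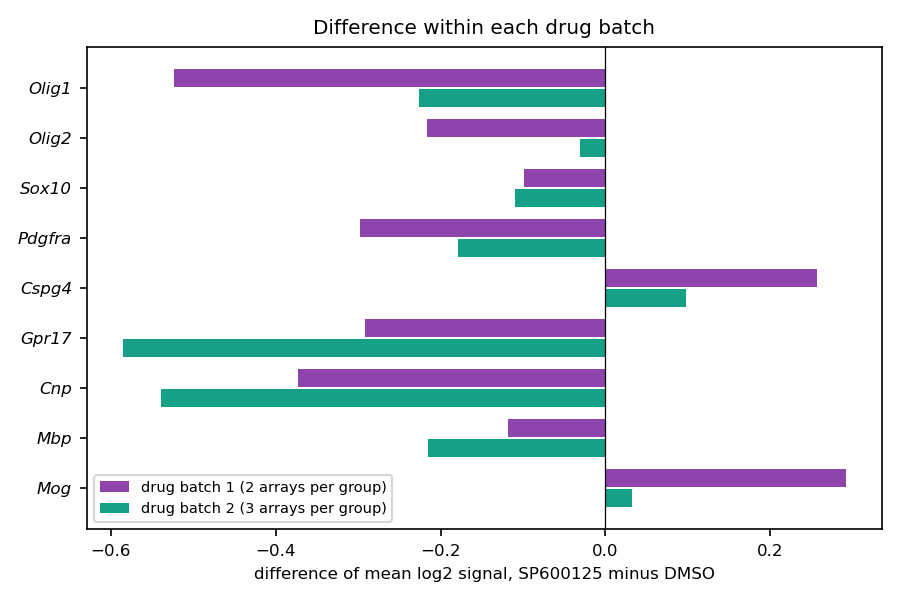
Difference of mean log2 signal (SP600125 minus DMSO) of each gene within drug batch 1 (purple, 2 arrays per group) and drug batch 2 (green, 3 arrays per group). All 9 genes have the same sign in both batches, with bars from −0.59 to 0.29.

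Other genes of the lineage were counted in lists by stage, beside 29.9% lower and 17.0% higher over all genes tested. Of 15 further progenitor-stage genes, 6 fell (40.0%) and 2 rose (13.3%), with a median log2 change of −0.04. Lhfpl3 (−0.46, SE 0.08) and the brain proteoglycan Cspg5 (−0.35, SE 0.07) fell most, and Zfp488, a zinc finger factor of oligodendrocyte differentiation (0.25, SE 0.09), and the sialidase Neu4 (0.20, SE 0.08) rose. Of 12 premyelinating genes, 5 fell (41.7%) and 1 rose (8.33%). The array means of the progenitor-stage and premyelinating lists lay between 6 and 7. Among all genes of that brightness 41.1% passed as lower and 7.23% as higher. The GTPase Rras2 (−0.46, SE 0.06) and Tmem163, a zinc transporter (−0.37, SE 0.09), fell most, and the ligand Bmp4 rose (0.19, SE 0.06).

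Of 25 further genes of myelinating cells, 4 fell, 5 rose and 16 did not pass, with a median log2 change of 0.08. Anln, an actin-binding protein that dividing cells use as well (−0.48, SE 0.08), and the tetraspanin Tspan2 (−0.34, SE 0.07) fell most. Trf, the iron carrier transferrin (0.26, SE 0.08), and Opalin, a membrane protein of mature oligodendrocytes (0.23, SE 0.07), rose from DMSO means of 5.67 and 3.97. Their means over all arrays fell in the ranges from 5 to 6 and from 4 to 5, in which 27.6% and 36.2% of genes rose. After cyclic loess 2 of the 25 genes rose and 3 fell.

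Of 17 genes of signals that act on the lineage, 6 fell (35.3%) and 4 rose (23.5%), shares near those of all genes (29.9% and 17.0%). Fgfr3, a receptor for fibroblast growth factors found on progenitors and astrocytes, fell by 0.74 on the log2 scale (SE 0.06), more than any of the 9 lineage genes, while its relative Fgfr2 rose (0.35, SE 0.07). Pdgfa, which encodes the ligand of PDGFRA, fell by 0.29 (SE 0.08), and the cytokine gene Lif rose by 0.33 (SE 0.12). Of 10 genes listed here as inhibitors of oligodendrocyte differentiation, a role that may not hold for each, 1 fell and 2 rose. The gene that fell was Lingo1, a receptor component on neurons and oligodendrocytes (−0.49, SE 0.08). The risers were Id2, an inhibitor of helix-loop-helix factors (0.34, SE 0.09), and the BMP receptor gene Bmpr1a (0.23, SE 0.07).

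Markers of other cell types were counted as well, beside 29.9% lower and 17.0% higher over all genes tested. Whether those cells were present in the cultures was not tested. Of 16 pan-neuronal markers 15 fell, with Elavl4, a neuronal RNA-binding protein, at −0.81 (SE 0.12) and Syp, synaptophysin, at −0.67 (SE 0.13). Of 10 astrocyte markers 4 fell and 2 rose, led by Gfap (−0.36, SE 0.06), an intermediate filament, and the aldolase Aldoc (−0.23, SE 0.06) on the lower side and by glutamine synthetase, Glul (0.21, SE 0.06), and the gap junction gene Gja1 (0.21, SE 0.08) on the higher. Of 10 neural progenitor markers 2 fell, Nes (−1.34, SE 0.06) and Vim (−0.16, SE 0.05).

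Microglia and macrophage markers rose in 6 of 11 cases, led by the chemokine receptor gene Cx3cr1 (0.44, SE 0.10) and by Trem2 (0.31, SE 0.11). Their mean log2 signal ran from 4.65 to 4.89 with DMSO and from 4.89 to 5.05 with SP600125. In the ranges from 4 to 5 and from 5 to 6, which hold these means, 36.2% and 27.6% of genes rose. The share of the markers was 54.5%, against 17.0% of all genes. The means of Cx3cr1 (5.95) and Trem2 (6.28) over all arrays lay in the ranges from 5 to 6 and from 6 to 7, in which 27.6% and 7.23% of genes rose. After cyclic loess 2 of the 11 markers rose. Of 8 endothelial markers 1 fell (Kdr, −0.18, SE 0.06) and 2 rose (Esam, 0.27, SE 0.07, and Cldn5, 0.25, SE 0.06). These are 12.5% lower and 25% higher, against 29.9% and 17.0% of all genes. The part of any of these cell types in the falls of the oligodendrocyte lineage genes was not tested.

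**Figure D5:**
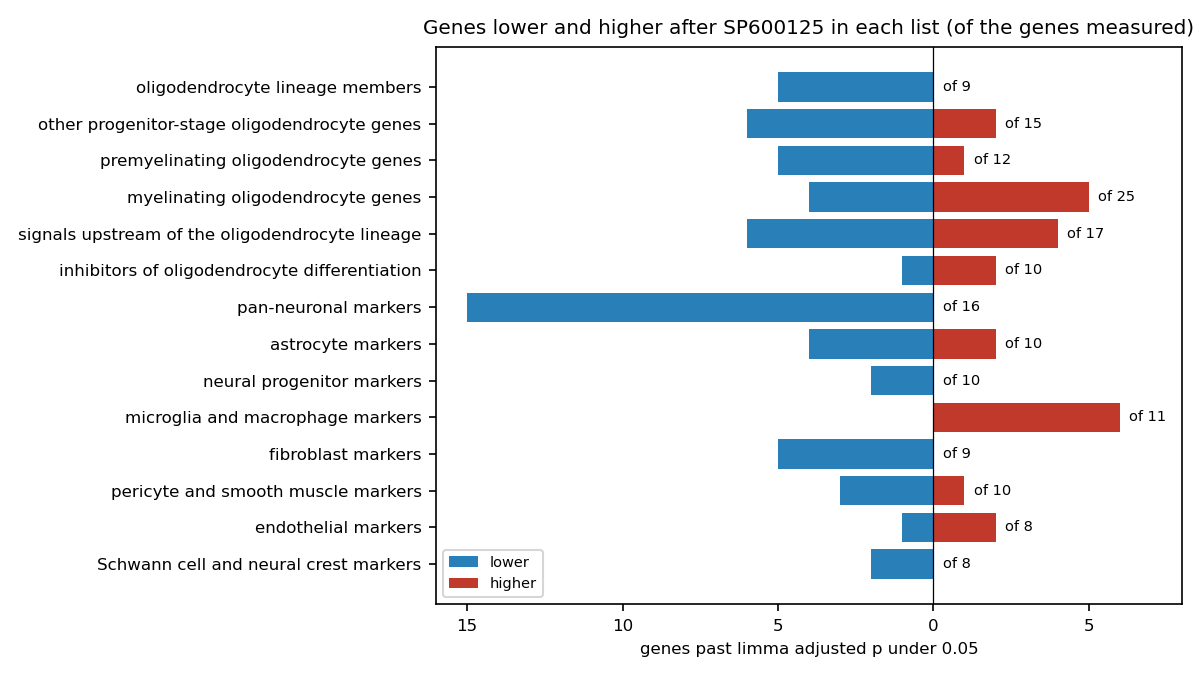
Number of genes lower (blue, left) and higher (red, right) after SP600125 at an adjusted p under 0.05 from limma in the 9 oligodendrocyte lineage genes and in each other list, with the number measured at the right. The progenitor-stage list has 6 lower and 2 higher and the myelinating list 4 lower and 5 higher (3 and 2 after cyclic loess), where all genes have 29.9% lower and 17.0% higher. Genes between 6 and 7, where the progenitor-stage list lay, have 41.1% lower and 7.23% higher. Genes between 5 and 6, where the myelinating list lay, have 13.8% lower and 27.6% higher.

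Genes whose log2 signal ran most like that of the lineage genes over the 10 arrays were named as a description, since the arrays fall into treated and untreated groups that dominate any such likeness. For Olig1 they were Creld2, Gtf2b and Gk5 (Pearson r from 0.96 to 0.97), for Cnp Rfc5, Nepro and Myl6 (0.97 to 0.98) and for Gpr17 Nfatc2ip, Pdss2 and Mvd (0.97 to 0.98). Sbf2, Tra2b and Ccnh ran most like Pdgfra (r of 0.99 for each), and Ggt7, Cdk9 and Nup155 most like Mbp (0.95 to 0.99).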

How the data were processed

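Deposited log2 expression values, 1 per probe set and array for 35556 probe sets on 10 arrays, were used as the authors deposited them. The submitters' processing notes name oligo 1.14.0. How background, normalization and summarization were handled is not given in the sources used here. The log2 scale was taken from the values (lowest 1.90, highest 13.83). Depth has no meaning for arrays, and the number of arrays limits the precision.

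Probe sets with exactly 1 symbol in the platform annotation (21789, against 1621 with several and 12146 without) gave 19938 genes, with the brightest probe set standing for a gene that had several. Each of the 9 lineage genes had a single such probe set. Signals of different probe sets are not comparable, so no order of levels between genes is given. The fit, with two-sided tests, used limma 3.58.1 under R 4.3.3 (lmFit, then eBayes; treatment plus drug batch, 7 residual degrees of freedom), adjusted by Benjamini-Hochberg over all genes, with a threshold of 0.05. The fit was tested on simulated data.

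Exact permutations of treatment labels within drug batch (120 in all) tested 3 differences between genes, a test added after the data had been seen. Alternatives covered scaling, batch term, replicate letter, a filter at a mean of 5, limma's trend and robust options, probe set choice, single batches and left-out arrays. The members and lists were chosen with earlier results of these data known. All 9 members were named; from each other list the 2 largest changes past the threshold in each direction, and for each member past it the 3 genes of highest correlation, leaving out predicted genes and olfactory and vomeronasal receptors. Genes shared by lists were counted in each. Some genes of the lists are not reported here. Promoter windows of 5 of the 9 genes came from RefSeq.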

Additional observations from a re-analysis of the deposited data

Results flagged for a closer look

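Values that lay far from the other 4 of their group were looked for in 94 groups of 5 arrays (47 genes), by the gap to the nearest value over the group's range against Dixon's critical value of 0.71, which chance passes in about 1 group in 20. They were found in 13 groups. Among the 9 lineage genes the single case was Sox10 on SP600125 replicate b, at a log2 signal of 6.80 against 6.51 for the nearest array.

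SP600125 replicate b was also the high value for Cspg5 (8.70), Syp (9.31), Gfap (8.25), Col1a1 (10.4) and Gap43 (11.4). DMSO replicate b was low for Tspan2 (6.92) and Elavl4 (6.64) and high for Gja1 (9.53). The others were Zfp488 on SP600125 replicate e (5.92), Trf on DMSO replicate d (5.55), Fgfr3 on SP600125 replicate c (7.44) and Trem2 on SP600125 replicate e (6.10).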

How the results depend on the processing

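Of 23 alternatives, the number of lineage genes called lower stayed from 4 to 7 in all but cyclic loess, with 3 (Cnp, Gpr17 and Mbp), and drug batch 1 alone, with 0. The number called higher ranged from 0 to 1 when single arrays were left out. The median log2 change of the 9 genes was −0.078 after cyclic loess and −0.28 with each array centred on the median of all probe sets, a centring that moved the median of all genes from −0.03 to −0.13. Cnp and Gpr17 passed in 22 of 23 alternatives each, Olig1 in 21, Pdgfra in 20 and Mbp in 15. Rises made up 36.2% of calls over all genes as reported, 25.0% with quantile normalization, 14.8% with the median of all probe sets, 46.9% with the median of named genes (where Mbp had an adjusted p of 0.0662) and 34.7% with cyclic loess. Replicate letters did not pair the arrays: correlations of same-letter deviations ran from −0.21 to 0.10. For 0 of 5 letters were the DMSO and SP600125 arrays each other's best match. With the letter as a replicate block in limma, 4 of the 9 genes passed as lower, all but Mbp of the 5 (adjusted p = 0.0541). The counts of the other lists were within 1.5 times of those reported in 458 of 598 cases. The causes of these differences were not tested.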
